A study of Homo sapiens with 4 samples.

Results

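REST and 8 neuroendocrine genes (CHGA, CHGB, SYP, ENO2, NCAM1, INSM1, SRRM4 and SCG2) were examined in LNCaP cells given the KDM5 inhibitor CPI-455. These 9 genes were chosen by name, as the repressor of neuronal genes and the usual markers of neuroendocrine prostate cancer, out of 60675 genes counted. RNA was sequenced from LNCaP, an androgen-responsive prostate cancer line first grown from a metastasis in a lymph node. All cultures were given the synthetic androgen R1881 (1 nM) for 72 h. One group received R1881 with vehicle (DMSO) and the other R1881 with 50 µM CPI-455, with 2 biological replicates each. All 4 libraries therefore carry androgen, the cells are one line, and no library without R1881 was analysed here. The question was whether REST or the markers change when KDM5 demethylases are inhibited in androgen-treated cells.

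REST is a zinc-finger protein that binds a DNA element called RE1 near neuronal genes and recruits RCOR1, SIN3A, histone deacetylases and the demethylase KDM1A to keep these genes silent in non-neuronal cells. Neuroendocrine prostate cancer is a form that no longer depends on androgen, in which REST function is often low and granule, vesicle and neuronal proteins appear. SRRM4, a neuronal splicing factor, can splice REST transcripts to a short form with weak repressor activity. KDM5C, one of the enzymes that CPI-455 inhibits, has been found in complexes with REST.

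REST, the repressor, was well expressed and differed between the groups by less than 2-fold. CHGA, a granule protein, and NCAM1, an adhesion molecule, fell to 40.0% and 40.2% of their vehicle level. INSM1 and ENO2 were higher with CPI-455 by less than 2-fold, CHGB and SYP did not pass the test, and SRRM4 and SCG2 were near the detection limit. A gene was called when edgeR's quasi-likelihood test gave an FDR (Benjamini-Hochberg over the 17600 genes tested) below 0.05 and the change was at least 2-fold. By this rule 2 of the 7 genes that could be tested were called lower and 0 higher, while 21.3% of all genes tested were called lower, 21.0% higher and 42.4% in either direction. At an FDR below 0.05 with any fold, 2 were lower (CHGA and NCAM1) and 2 higher (ENO2 and INSM1), against 32.8% and 29.8% of all genes (62.6% in either direction). The passes of ENO2 and INSM1 did not hold under every alternative, as given with each gene. REST passed the FDR under some alternatives, and those that keep every library are given with that gene. DESeq2 called 1 of the 7, NCAM1, and 0 higher. A count of 2 in 7 lies near that background.

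The letters of the RE1 element were searched to describe which of these genes carry a fixed form of the sequence that REST reads. Forms with another gap were not searched, so a gene without a match is not shown to lack a REST site. The pattern was CAGCACC, 2 free bases, then GGACAGC, on both strands of GRCh38, from 5 kb before each gene to its end. The matches with at most 1 mismatch are printed with 3 flanking bases on either side, and capitals mark the bases that match the pattern.
CHGA, chr14:92923522-92923543, plus strand, intron: tttCAGCACCgcGGACAGCgcc
CHGB, chr20:5911703-5911724, plus strand, intron: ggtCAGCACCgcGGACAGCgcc
SRRM4, chr12:119061400-119061421, plus strand, intron: gttCAGCACCagGGACAGCgac
SRRM4, chr12:118981832-118981853, plus strand, overlapping an exon: tttCAGCACtttGGACAGCgcc
SYP, chrX:49200122-49200143, minus strand, intron: ctcCAGCACCgtGGACAGagcc
The matches of CHGA and CHGB had no mismatch and lay 445 and 276 bases after the gene start. The SYP match, with 1 mismatch, lay 119 bases after its start. SRRM4 held a match with 1 mismatch at 340 bases and one without mismatch at 79908 bases. NCAM1 held only intronic matches with 2 mismatches, and no match was found in REST, ENO2, INSM1 or SCG2.

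Such matches were rare around gene starts in general. In windows of 5 kb on each side of the start, a match without mismatch was found for 88 of 19528 protein-coding genes (0.451%) and for 2 of the 9 genes here. With up to 1 mismatch the counts were 435 (2.23%) and 4 of 9. With up to 2 mismatches, 3603 windows (18.5%) and 4 of 9 held one. The 300-base promoter windows of RefSeq, from 250 bases before to 50 after a start, held a match with up to 1 mismatch in 0.117% of 35116 windows and in 0 of the 6 windows that matched REST, ENO2, SRRM4, CHGA and SYP. A match of letters is a description and was not read as binding, since no measurement of REST on DNA was analysed here.

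The libraries differed in depth and in makeup. Replicates 1 and 2 had 19623553 and 20690819 fragments counted in the vehicle group, but 9522920 and 5401588 in the CPI-455 group. Levels are given as CPM, the count scaled to the normalized library size. The floor of 3 fragments corresponds to 0.142 and 0.137 CPM in the vehicle libraries and 0.337 and 0.595 CPM in the CPI-455 libraries, so low genes were measured less surely with the inhibitor. The nuclear RNA MALAT1 took 0.0884% to 0.114% of fragments with vehicle and 4.95% to 6.49% with CPI-455, and the mitochondrially encoded genes 1.91% to 2.43% and 0.967% to 1.24%. Leaving MALAT1 and the mitochondrial genes out of the normalization gave -0.29 for the log2 fold change of REST, -1.32 for NCAM1 and -1.32 for CHGA. The log2 fold changes given are CPI-455 over vehicle, so that a positive value is higher with the inhibitor. In bulk RNA, fewer cells with a transcript and less of it per cell cannot be told apart. The p-values rest on the spread between these 2 cultures per group, which edgeR combines for each gene with the spread over all genes tested.

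REST (chr4:56907876-56935844, plus strand) was counted with 2225 and 2343 fragments in the vehicle libraries and 763 and 445 in the CPI-455 libraries. After normalization these are 105.3 and 107.3 CPM with vehicle and 85.8 and 88.2 CPM with CPI-455. Both CPI-455 libraries were below both vehicle libraries, and the replicates of each group lay close together. The level of REST was 106 ± 1.37 CPM (SD, n = 2) with vehicle and 87.0 ± 1.72 CPM (SD, n = 2) with CPI-455. This is a log2 fold change of -0.29 (SE 0.115, 95% interval -0.55 to -0.03), which missed the threshold (edgeR's quasi-likelihood test, FDR = 0.052). The interval does not reach a 2-fold change in either direction. By the same test REST passed the FDR with library totals only (-0.48, FDR = 0.00506) and without the filter on low counts (-0.44, FDR = 0.0109). It also passed with edgeR's likelihood-ratio test (-0.29, FDR = 0.0333), and all of these values were under 2-fold. With 1 CPI-455 library left in the fit, REST was at -0.29 without CPI-455 replicate 1 and -0.35 without CPI-455 replicate 2. The value was 0.24 once a trend on exon length and GC content was removed from each library, so the direction of the REST difference depends on that choice. Counts per gene do not separate full-length REST from its short splice form.

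**Figure D1:**
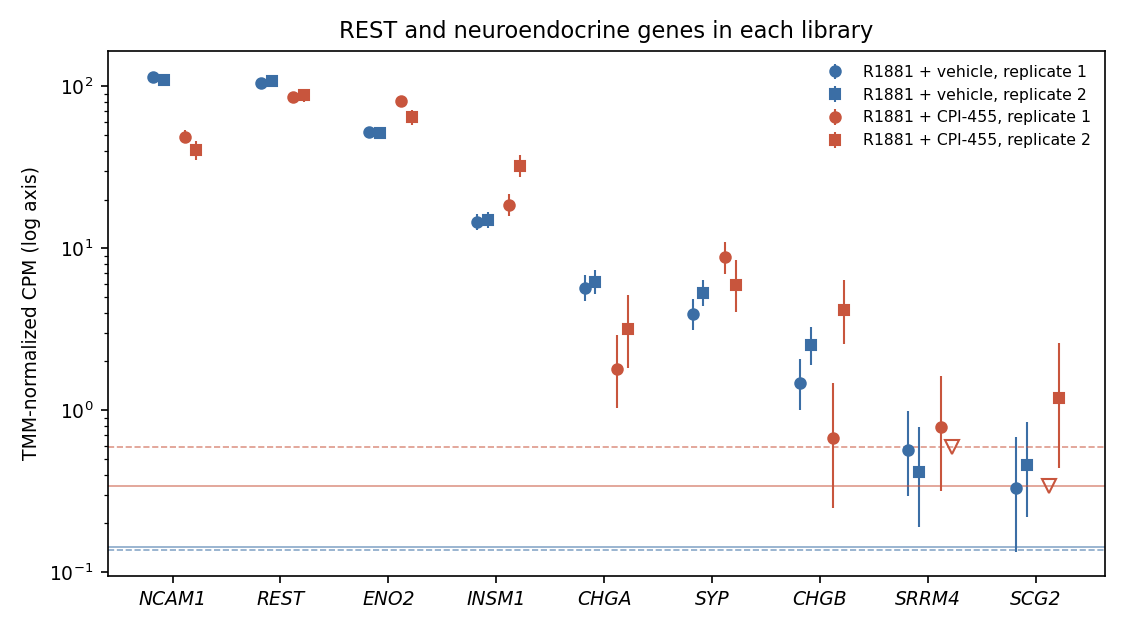
Normalized level of each of the 9 genes in each library (CPM, log axis), with vehicle and CPI-455 libraries in different colours and the bars giving the 95% Poisson interval of each count. REST and NCAM1 sit near 100 CPM with vehicle, NCAM1 is at 40.3 and 48.9 CPM with CPI-455, and SRRM4 and SCG2 have 1 CPI-455 library each without a fragment.

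SRRM4 (chr12:118981495-119163051, plus strand), the splicing factor that acts on REST, was near the detection limit. Its counts were 12 and 9 fragments with vehicle and 7 and 0 with CPI-455, or 0.568, 0.412 and 0.787 CPM in the libraries where it was seen. In CPI-455 replicate 2 a count of 0 allows up to 0.595 CPM, which is above both vehicle values, so no difference was detectable at this depth. SRRM4 was removed by the filter on low counts. Without the filter its log2 fold change was -0.30 (SE 1.21, FDR = 0.85 by edgeR's quasi-likelihood test). Its exons share 25 bases with another gene.

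INSM1 (chr20:20368121-20370949, plus strand) is a single-exon zinc-finger transcription factor of endocrine and neuronal precursor cells. It was counted with 308 and 327 fragments with vehicle and 165 and 162 with CPI-455, or 14.6 and 14.97 CPM against 18.6 and 32.1 CPM. The groups did not overlap, but the CPI-455 replicates were much farther apart than the vehicle replicates. The level was 14.8 ± 0.276 CPM (SD, n = 2) with vehicle and 25.3 ± 9.59 CPM (SD, n = 2) with CPI-455. A log2 fold change of 0.75 (SE 0.258, 95% interval 0.17 to 1.33) passed the FDR but not the 2-fold limit (edgeR's quasi-likelihood test, FDR = 0.0291). CPI-455 replicate 2 weighed on this value, since without it the log2 fold change was 0.29 (FDR = 0.162) and without CPI-455 replicate 1 it was 1.10 (FDR = 6.9e-09), past the 2-fold limit. INSM1 also missed the FDR with library totals only (FDR = 0.0853), without the filter (FDR = 0.0626), with the length and GC trend removed (FDR = 0.15) or with that trend and the replicate block (FDR = 0.139), and without vehicle replicate 1 (FDR = 0.0985) or 2 (FDR = 0.0843).

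CHGA (chr14:92923080-92935293, plus strand) encodes chromogranin A, an acidic protein of dense-core granules and the most used serum and tissue marker of neuroendocrine tumours. It had 120 and 136 fragments with vehicle and 16 and 16 with CPI-455, which are 5.68 and 6.23 CPM against 1.80 and 3.17 CPM. Every CPI-455 value was below every vehicle value. CHGA fell from 5.95 ± 0.386 CPM (SD, n = 2) to 2.49 ± 0.971 CPM (SD, n = 2). Its log2 fold change was -1.32 (SE 0.404, 95% interval -2.23 to -0.41, FDR = 0.0176 by edgeR's quasi-likelihood test). With all libraries thinned to 5401588 fragments the counts were 30, 39, 9 and 16, and the call was lost (log2 fold change -1.15, FDR = 0.0589), as it was with DESeq2 (-1.27, adjusted p = 0.0694). It was also lost without either vehicle replicate (-1.37 without replicate 1 and -1.24 without replicate 2) and without CPI-455 replicate 1 (-0.93). CHGA carries an RE1 match without mismatch, printed above.

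CHGB (chr20:5911430-5925361, plus strand), the second chromogranin of these granules and also a carrier of an RE1 match without mismatch, gave no stable value. It was counted with 31 and 55 fragments with vehicle and 6 and 21 with CPI-455, or 1.47 and 2.52 CPM against 0.675 and 4.16 CPM. One CPI-455 library was below and the other above both vehicle libraries. Its log2 fold change of 0.16 had a 95% interval from -1.56 to 1.88 (SE 0.763, FDR = 0.872 by edgeR's quasi-likelihood test), which includes changes of more than 2-fold in both directions. Without CPI-455 replicate 2 it was -1.60 (FDR = 0.0268) and without CPI-455 replicate 1 it was 1.04 (FDR = 0.0497), opposite in sign and each called.

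SCG2 (chr2:223596940-223602503, minus strand), the precursor of secretoneurin, was near the detection limit like SRRM4. It was counted with 7 and 10 fragments with vehicle and 0 and 6 with CPI-455, or 0.331 and 0.458 CPM against 0 and 1.19 CPM. The groups overlapped, and the filter removed the gene. Without the filter the log2 fold change was 0.29 (SE 1.41, FDR = 0.876 by edgeR's quasi-likelihood test).

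SYP (chrX:49187804-49200259, minus strand) encodes synaptophysin, a membrane protein of small synaptic-like vesicles. It was counted with 83 and 116 fragments with vehicle and 78 and 30 with CPI-455, or 3.93 and 5.31 CPM against 8.77 and 5.95 CPM. The CPI-455 values were the higher ones, with a small gap between the groups. The level was 4.62 ± 0.977 CPM (SD, n = 2) with vehicle and 7.36 ± 2.00 CPM (SD, n = 2) with CPI-455. A log2 fold change of 0.69 (SE 0.344, 95% interval -0.08 to 1.47) missed the threshold (edgeR's quasi-likelihood test, FDR = 0.106). With upper-quartile normalization SYP was at 0.87 (FDR = 0.0501 by the same test). With 1 CPI-455 library left in the fit, SYP was at 0.34 without CPI-455 replicate 1 and 0.88 without CPI-455 replicate 2. Its exons share 68 bases (1.30%) with an antisense gene, and the counting did not use strand.

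ENO2 (chr12:6913745-6923698, plus strand) is the neuron-specific enolase, a glycolytic enzyme measured in serum as a neuroendocrine marker. It had 1099 and 1131 fragments with vehicle and 723 and 324 with CPI-455, or 52.0 and 51.8 CPM against 81.3 and 64.2 CPM. The vehicle replicates were nearly equal and both CPI-455 values lay above them. ENO2 was at 51.9 ± 0.173 CPM (SD, n = 2) with vehicle and 72.8 ± 12.1 CPM (SD, n = 2) with CPI-455. The ENO2 log2 fold change of 0.50 (SE 0.147, 95% interval 0.16 to 0.83) passed the FDR (edgeR's quasi-likelihood test, FDR = 0.0154) and its interval stayed under 2-fold. It missed the FDR with library totals only (FDR = 0.0977), without the filter (FDR = 0.0979), without vehicle replicate 1 (FDR = 0.132) or 2 (FDR = 0.143), and without CPI-455 replicate 1, where it was 0.29 (FDR = 0.0525). The other enolases moved otherwise: ENO1, the ubiquitous form, was at -0.98 (FDR = 9.6e-05) and ENO3, the muscle form, rose with a log2 fold change of 2.43 (FDR = 6.5e-06).

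NCAM1 (chr11:112961247-113278436, plus strand), the neural cell adhesion molecule also known as CD56, showed the largest change relative to its standard error among the 7 genes tested. It was counted with 2399 and 2400 fragments with vehicle and 435 and 203 with CPI-455, or 113.6 and 109.9 CPM against 48.9 and 40.3 CPM. The groups were far apart compared with their replicates. NCAM1 fell from 112 ± 2.61 CPM (SD, n = 2) to 44.6 ± 6.13 CPM (SD, n = 2). Its log2 fold change was -1.31 (SE 0.138, 95% interval -1.63 to -1.004, FDR = 3.5e-05 by edgeR's quasi-likelihood test). It was called without each of the 4 libraries in turn (-1.49 to -1.23). With the trend on length and GC removed it was -0.99, just under 2-fold. Of its exon bases, 703 (5.52%) are shared with 2 antisense genes.

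**Figure D2:**
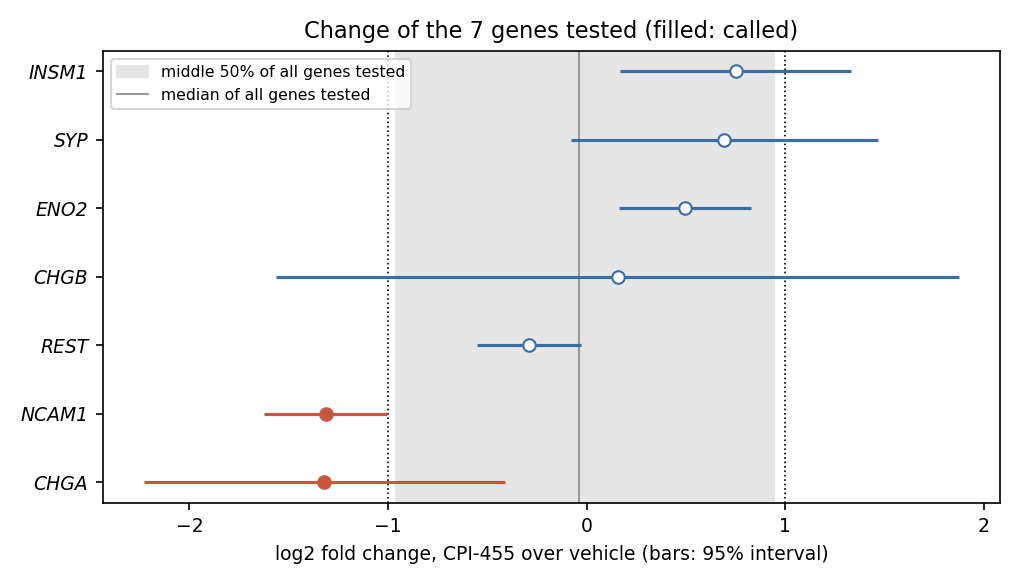
Log2 fold change (CPI-455 over vehicle) of the 7 genes tested, with 95% intervals as bars, filled points for called genes, a grey band for the middle 50% of all 17600 genes tested and dotted lines at 2-fold. CHGA and NCAM1 lie left of the band at -1.32 and -1.31, and REST, CHGB, ENO2, SYP and INSM1 lie inside it.

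Per kilobase of exon, which allows genes to be compared, REST was the highest of the 9 with vehicle at 13.4 CPM per kb, followed by ENO2 at 12.1, NCAM1 at 8.77, INSM1 at 5.22 and CHGA at 1.92. SYP at 0.886 and CHGB at 0.440 CPM per kb came next, and SCG2 at 0.145 and SRRM4 at 0.0555 were lowest. With CPI-455 ENO2 was highest at 17.0 CPM per kb, then REST at 10.9, INSM1 at 8.96 and NCAM1 at 3.50. SYP was at 1.41, CHGA at 0.801 and CHGB at 0.533 CPM per kb. Neighbours in the vehicle order did not overlap between replicates. In the CPI-455 order REST overlapped with INSM1, CHGA with CHGB, CHGB with SCG2, and SCG2 with SRRM4. The 5 genes whose pattern over the 4 libraries was nearest to that of REST were PRPS1, XRN2, FAM120B, HLA-B and ELF2, with a root mean square difference of 0.00216 to 0.019 on the log2 CPM scale among 4000 genes of like level. Patterns over 4 libraries are a description only.

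The cofactors of REST moved in both directions, as did all genes tested, of which 21.3% were called lower and 21.0% higher. Of 26 genes of the REST corepressor complexes all were tested, with 6 called lower and 3 called higher. The median change was -0.01 (log2) against -0.04 for all genes tested. SIN3A, the scaffold of the deacetylase complex at the REST amino terminus, fell with a log2 fold change of -1.46 (FDR = 1.6e-05). HMG20B, a DNA-binding subunit of the KDM1A complex, rose by 1.40 (FDR = 9.8e-06) on the log2 scale. The phosphatases CTDSP1 and CTDSPL, which act with REST on neuronal genes, fell with log2 fold changes of -1.79 and -1.22, and ZMYM3 and L3MBTL1 rose with 1.20 and 1.90. The scaffold RCOR1 was at -0.48 (FDR = 0.0435), under 2-fold, and its paralogue RCOR2, named after its value was seen, fell with a log2 fold change of -1.16 (FDR = 0.00597). The enzymes were under 2-fold, with KDM1A at 0.55 (FDR = 0.00231), HDAC1 at 0.38 (FDR = 0.00953), HDAC2 at -0.56 (FDR = 0.00335) and the methyltransferase EHMT2 at 0.69 (FDR = 0.000832). KDM5C, itself a target of the inhibitor, was at 0.03 (FDR = 0.829). Over the alternatives 3 to 9 of the list were called lower, and its median ran from -0.20 to 0.21, so it has no fixed direction.

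Of 10 genes that control the stability of REST protein, all tested, 3 were called lower and 0 higher, beside 21.3% and 21.0% of all genes. The alternatives called 3 lower each time and 0 to 1 higher. Those called lower were BTRC, the subunit that hands REST to the ubiquitin ligase, at -2.14 (FDR = 3.2e-06), its paralogue FBXW11 at -1.48 (FDR = 1e-05) and CUL1, the scaffold of that ligase, at -1.33 (FDR = 0.000119). Under 2-fold but past the FDR were USP7, a deubiquitinase of REST, at -0.67 (FDR = 0.000638), RBX1, the RING subunit of the same ligase, at 0.97 (FDR = 0.00127) and the kinase CSNK1E at 0.47 (FDR = 0.00502). REST protein was not measured here.

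Genes of secretory granules split into lower and higher ones around the chromogranins. Of 32 listed, 19 were tested, 7 were called lower and 5 higher, with a median of -0.43, and 5 were without a fragment in every library. The shares over all genes are 21.3% and 21.0%. The counts were not stable, with 4 lower and 3 higher without vehicle replicate 2, 5 and 3 without vehicle replicate 1, 8 and 2 without CPI-455 replicate 2, and 3 and 4 at 10 counts or more in every library. The median ran from -0.85 to -0.26. SYT4, a granule synaptotagmin, had 211 and 221 fragments with vehicle and 13 and 0 with CPI-455 (log2 fold change -3.48, FDR = 0.000821). RAB3D at -2.35, and the prohormone-processing enzymes PCSK2 at -1.69 and CPE at -1.38, were also called lower. BAIAP3, which acts in granule release, rose with a log2 fold change of 2.31, the peptides ADM and VGF with 1.67 and 1.39, and UCHL1 (PGP9.5), a neuronal deubiquitinase, with 1.09. RAB27B, named after its values were seen, had 56 and 64 fragments with vehicle and none with CPI-455. It was at least 13.0-fold lower against a floor of 3 fragments over the CPI-455 group. RAB27B is among the 7 called lower and passed the filter on low counts through its vehicle libraries only.

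Of 60 synaptic and neuronal genes, 48 were tested, 11 were called lower and 7 higher, with a median of 0.15. These counts are near the 21.3% and 21.0% of all genes tested. NCAM2, the paralogue of NCAM1, fell with a log2 fold change of -2.83 (FDR = 2.4e-05), the vesicle protein SV2A with -1.95 and the kinesin KIF3C with -1.71. UNC13A, a vesicle priming factor, rose with 2.195 (FDR = 3e-06), the syntaxin STX1A with 1.67 and the stathmin STMN3 with 1.72. The median ran from -0.17 to 0.32 over the alternatives.

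**Figure D3:**
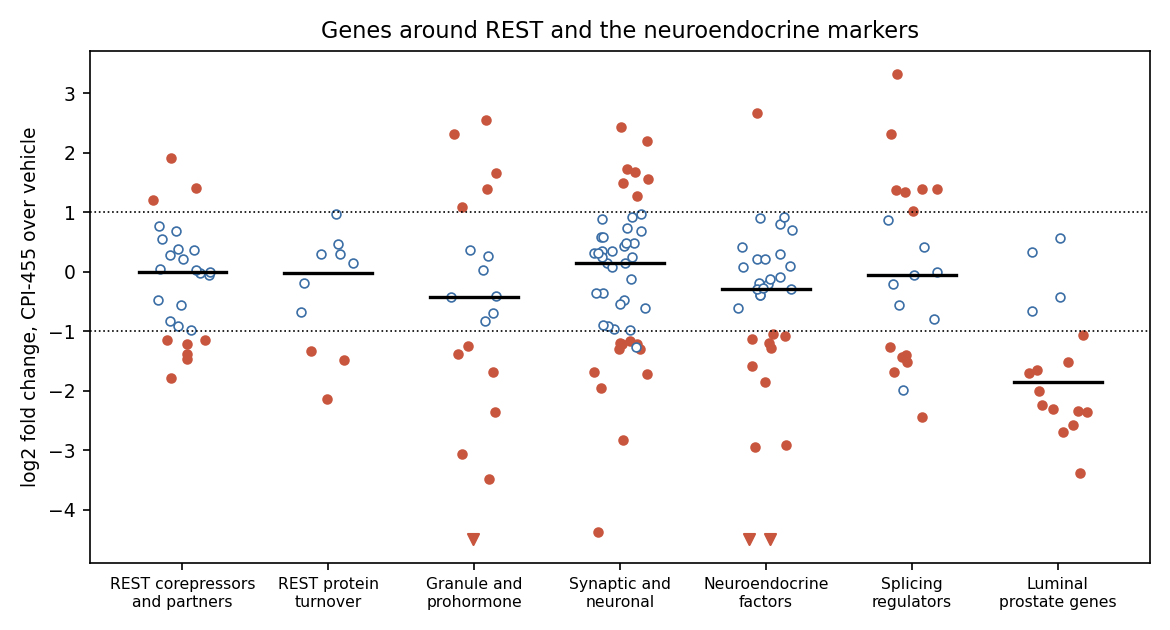
Log2 fold change (CPI-455 over vehicle) of each tested gene in the lists of REST partners, granule, synaptic, transcription factor, splicing and luminal genes, with filled points for called genes, a bar at each median and triangles for genes below the axis, which have no fragment with CPI-455. Luminal genes centre on -1.86, and the other lists spread to both sides of 0.

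Of 39 transcription and lineage factors linked to the neuroendocrine state, 32 were tested, 11 were called lower and 1 higher, with a median of -0.29. The list was not split into genes raised and genes lost in that state, so its counts give no direction for the state. All genes tested gave 21.3% lower and 21.0% higher, or 42.4% in either direction. PEG10, a retrotransposon-derived gene raised in neuroendocrine tumours, had 124 and 85 fragments with vehicle and none with CPI-455, at least 22.6-fold lower against 3 fragments over the group. NOTCH1 fell with a log2 fold change of -2.91 (FDR = 6.4e-06), HNF4G with -2.94 (FDR = 0.0179) and the retinoblastoma gene RB1 with -1.85 (FDR = 1.3e-05). HES1, a transcriptional repressor and Notch target, was the gene called higher, with a log2 fold change of 2.67 (FDR = 5.9e-07). Chosen after their values were seen, MYCN had 26 and 26 fragments with vehicle and none with CPI-455 (at least 5.62-fold lower). PEG10 and MYCN are among the 11 called lower and passed the filter on low counts through their vehicle libraries only. With at least 10 counts in every library, 28 were tested, 8 called lower and 1 higher, with a median of -0.20. With upper-quartile normalization 8 were called lower and 3 higher, and after thinning 7 and 2.

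Luminal prostate genes, which define LNCaP, were present in every library, and most were lower with CPI-455. Of 16 tested, 12 were called lower and 0 higher, beside 21.3% and 21.0% of all genes tested. At an FDR below 0.05 with any fold, 14 of the 16 were lower and 1 higher (edgeR's quasi-likelihood test). The shares over all genes tested are 32.8% and 29.8%. The 16 log2 fold changes had a median of -1.86 and a highest value of 0.56. Their summed level lay at 1279 to 1368 CPM in the vehicle libraries and at 483 to 552 CPM in the CPI-455 libraries. KLK3, which encodes prostate-specific antigen, fell with a log2 fold change of -1.65 (FDR = 9.9e-06). Of 6 basal markers only DST was tested, and KRT5 and KRT15 were without a fragment in all 4 libraries. Of 13 stromal and immune markers 3 were tested. All 13 together had a summed level of 18.5 to 23.7 CPM in the vehicle libraries and 17.9 to 21.2 CPM in the CPI-455 libraries.

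Genes with an RE1 match near the start were then described as a group, because CHGA and CHGB are among them. Of the 88 genes with a match without mismatch, 33 (37.5%) had at most 3 fragments in every library, against 19.5% of all protein-coding windows. The test covered 42 of the 88, of which 11 (26.2%) were called lower and 9 (21.4%) higher, beside 24.3% lower and 15.7% higher among 13792 protein-coding genes. Their median log2 fold change was 0.15, with -0.21 for the protein-coding genes. With up to 1 mismatch, 266 of 435 genes were tested, 69 (25.9%) were lower and 56 (21.1%) higher, with a median of 0.00. CHGA, at -1.32, is among the 11 called lower, and CHGB was not called. Some calls among the 42 rest on few fragments in one group. SLC18A3, called lower, was without a fragment in both CPI-455 libraries and passed the filter on low counts through its vehicle libraries only. KCNK12, also called lower, had counts of 15 and 0 in the CPI-455 libraries. KCNH4, called higher, had counts of 7 and 5 in the vehicle libraries. Whether these shares and medians hold under the alternatives was not tested.

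Over 16 other ways of processing, CHGA, NCAM1, SYP, ENO2 and INSM1 kept their direction each time, REST in 14 and CHGB in 11 of the 15 that could be fitted. NCAM1 was called in 14 of them and CHGA in 11, while SYP and ENO2 were called in 0.

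**Figure D4:**
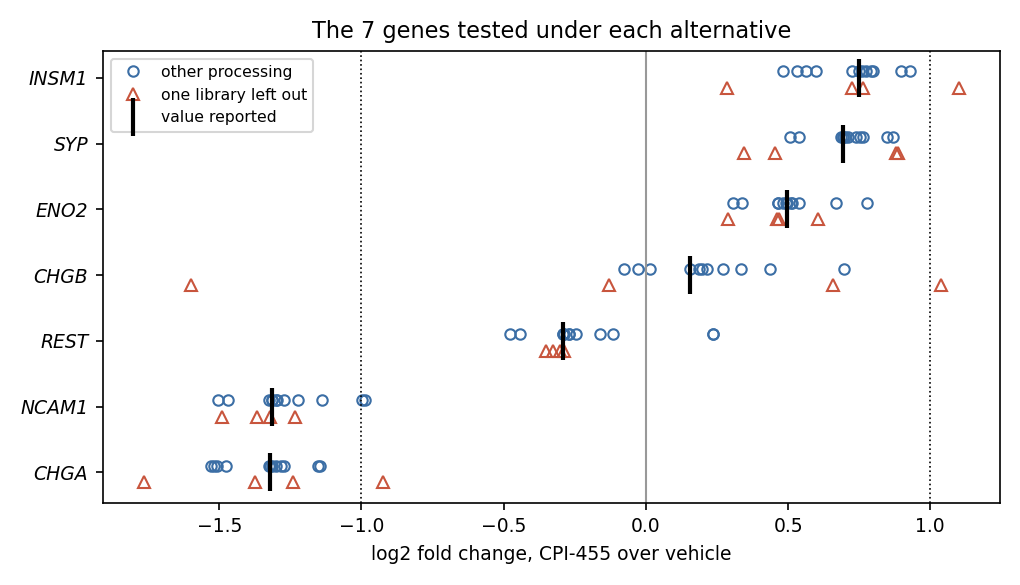
Log2 fold change (CPI-455 over vehicle) of the 7 genes tested, with black bars for the reported value, circles for other ways of processing and triangles for one library left out. NCAM1 stays between -1.505 and -0.99 and CHGA between -1.77 and -0.93, while CHGB runs from -1.60 to 1.04 and REST from -0.48 to 0.24.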

How the data were processed

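The authors trimmed the reads (TrimGalore) and aligned them with STAR to GRCh38. Fragments on exons of Ensembl release 83 genes were counted with featureCounts v1.5.0-p1. The deposited values are raw counts per gene for each library. Strand was not used, and the RNA selection is not given in the sources used here. Symbols were matched for 56558 of 60675 genes.

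Counts were normalized with TMM, filtered with filterByExpr (minimum 10 counts) and tested with glmQLFit and glmQLFTest in edgeR 4.0.16 (R 4.3.3), without covariates, with Benjamini-Hochberg adjustment over 17600 genes. CPM are on the normalized library sizes. At the detection limit means 3 or fewer fragments in every library, and near it a mean of 10 or fewer in a group or removal by the filter. Intervals of single counts are exact Poisson intervals and cover counting error only, since fragments are not independent molecules. With 2 libraries against 2, an exact permutation test cannot give a p below 0.333.

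Alternatives were other normalizations and filters, DESeq2 1.42.0, the likelihood-ratio test, thinning, a trend on length and GC (mgcv 1.9.3), a replicate block and leaving out each library. The genes and lists were chosen with earlier results of these data known. From each list, up to 4 called genes in each direction with the largest change and a mean log2 CPM of at least 1 are named, with KLK3 and the main REST partners. ENO1, USP7, RBX1, CSNK1E and genes marked so were chosen after their values were seen. Some genes are not reported here.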

Additional observations from a re-analysis of the deposited data

How the results depend on the processing

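Over 16 alternatives, 105 of 111 values of the tested genes kept their direction, 96 also kept their side of the call, 7 lost it, 2 gained it and 6 changed sign. REST was 0.24 with the length and GC trend removed, and 0.24 with that trend and the replicate block. CHGB was -0.029 with library totals only and -0.078 with the replicate block, and could not be fitted with at least 10 counts in every library. CHGA lost its call with DESeq2 (-1.27) and after thinning (-1.15). NCAM1 lost it with the trend removed (-0.99) and with trend and block (-0.998). The called genes among the 9 therefore numbered 1, lower, under each of DESeq2, thinning, the trend, and the trend with the block. Leaving out 1 library, and taking the lone sample of a group to vary like the other group, gave 1 to 3 called, 1 to 3 lower and 0 to 2 higher. The ranges were -0.35 to -0.29 for REST, -1.77 to -0.93 for CHGA, -1.60 to 1.04 for CHGB, 0.34 to 0.89 for SYP, 0.29 to 0.60 for ENO2, -1.49 to -1.23 for NCAM1 and 0.29 to 1.10 for INSM1. The cause was not tested. With no mismatch allowed, 3 genes rather than 5 held an RE1 match in the gene or 5 kb before it.

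Replicate numbers are shared by the groups, but the deviations of same-numbered libraries correlated at only 0.04 and neither the labels nor the methods pair them. The replicate block gave -0.29 for REST, -1.32 for CHGA and -1.32 for NCAM1, and changed no call of the 7 genes. The median log2 fold change of all genes was -0.04 as reported, 0.14 with upper-quartile normalization and -0.23 with library totals, so small differences such as that of REST (-0.11 and -0.48 there) carry this shift. At the depth of CPI-455 replicate 2, a count of 0 for SRRM4 could not be told from its vehicle level.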

Other observations

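Splicing regulators that work with or beside SRRM4 changed in both directions. Of 24 listed, 21 were tested, with 6 called lower and 7 called higher, beside 21.3% and 21.0% of all genes tested. The median change was -0.05 (log2), and it ran from -0.31 to 0.23 over the alternatives. The neuronal RNA-binding proteins CELF4 and CELF5 rose with log2 fold changes of 3.32 (FDR = 1.8e-05, edgeR's quasi-likelihood test) and 2.32 (FDR = 0.000131), RBFOX3 with 1.40 and NOVA1 with 1.39. ESRP1, the epithelial splicing regulator, fell with -2.45 (FDR = 0.000389), RBFOX2 with -1.68, QKI with -1.52 and NOVA2, the paralogue of NOVA1, with -1.44. SRRM3, the paralogue of SRRM4, was at 0.87 (FDR = 0.00733), under 2-fold, with a level of 9.01 ± 0.246 CPM (SD, n = 2) with vehicle and 16.5 ± 0.87 CPM (SD, n = 2) with CPI-455.

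Among the genes with an RE1 match without mismatch near the start, chosen after their values were seen, the neurofilament genes moved apart. NEFM had 2664 and 2518 fragments with vehicle and 3795 and 2843 with CPI-455 (log2 fold change 2.03), and INA had 2234 and 2487 against 275 and 196 (-1.67). Of 7 genes listed for RNA quality, all tested, 3 were called lower and 2 higher, beside 21.3% and 21.0% of all genes tested. Their median log2 fold change was -0.23, and the values ran from -4.97 to 6.01. The highest was MALAT1 at 6.01 (FDR = 2.7e-07, edgeR's quasi-likelihood test).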
